A study of Mus musculus with 16 samples.

Results

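The genes described here make sterols and fatty acids in the mouse periaqueductal gray (PAG), together with the genes that switch this synthesis on and off and that move sterol between cells. They were chosen as a list of 33 gene symbols, matched by Ensembl identifier to the deposited tables, and all 33 were found among the 38924 genes listed. All 33 were also among the 18111 genes whose counts were high enough to test. The study measured polyA RNA in PAG punches of male mice, in 4 groups of 4 libraries each: naive wild type, wild type given morphine, naive RGSz1 KO (knockout) and RGSz1 KO given morphine. Each library pooled punches of 2 animals. According to its design text, the study asked how morphine tolerance and RGSz1, a regulator of G protein signalling encoded by Rgs20, act on gene expression in this region. The allele, strain, age, morphine dose and schedule, and any vehicle given to the naive mice are not stated in the labels at hand.

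Sequencing depth ranged from 19.1 to 55.0 M counted reads per library. Rgs20 itself stood at 12.8 ± 0.824 CPM (counts per 1 M reads, mean ± SD, n = 4) in naive and 13.1 ± 1.04 in morphine libraries of wild type, and at 12.6 ± 0.95 and 12.1 ± 0.667 in those of the knockout. Its difference between the genotypes did not pass the threshold in naive mice (log2 fold change -0.02 ± 0.071 SE, edgeR adjusted p = 0.943) or after morphine (-0.11 ± 0.073, adjusted p = 0.669). How the gene was disrupted is not stated in the labels, so its count does not check the genotype. The text below speaks of libraries labelled knockout. Wild-type naive library 2 and knockout-labelled morphine library 3 stood apart by markers of meningeal fibroblasts, cells of the brain's outer covering, with mean log2 deviations of 2.424 and 1.962 against -0.685 to 0.785 in the other 14. In bulk tissue, fewer cells of a type and less RNA per cell cannot be told apart.

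Cells build cholesterol from acetyl-CoA through the mevalonate pathway, which leads to farnesyl diphosphate. A second set of enzymes joins farnesyl units to squalene, closes it into a ring and trims it to cholesterol. The adult brain makes its own cholesterol because lipoproteins do not cross the blood-brain barrier, and much of it goes into myelin, the membrane that oligodendrocytes wrap around axons. When sterol in the endoplasmic reticulum is low, SCAP carries the membrane-bound factor SREBP to the Golgi, where it is cut and released to the nucleus. INSIG proteins hold SCAP back when sterol is plentiful. SREBP-2, encoded by Srebf2, chiefly drives cholesterol genes, and SREBP-1, encoded by Srebf1, drives fatty acid genes. The liver X receptors (LXR) Nr1h2 and Nr1h3 respond to oxidised sterols and act on efflux genes such as Abca1 and Apoe, and on Srebf1.

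SREBP binds a sterol regulatory element in the promoters of its target genes, usually beside sites for the cofactors NF-Y, which reads CCAAT, and Sp1, which reads GC boxes. RefSeq promoters (build GRCm38.p6, 250 bases before to 50 after each start) were present for 27 of the 33 genes, 38 promoters in all. These letter patterns were searched on both strands. TCACNCCAC, a form of the sterol regulatory element, was in the promoter of 1 of the 27 genes (Hmgcs1), against 1.44% of all 27025 genes with a promoter. CCAAT was in 19 of the 27 (70.4%), against 41.1% of all genes. The GC box GGGCGG was in 20 (74.1%), against 38.2%, and the E-box CACGTG in 6 (22.2%), against 8.09%. No promoter was present for Sqle, Fdps, Fdft1, Stard4, Scd1 and Scd2. The promoter of Hmgcs1 is shown because it holds the sterol element match, although Hmgcs1 passed in no comparison below. Those of Nsdhl, Sc5d and Abca1 are shown as examples of genes that passed in at least 1 comparison. Insig2, Srebf1, Acaca and Apoe also passed and had promoters, which are not shown. The promoters of Acaca and Apoe held no match to any of these patterns, while those of Insig2 and Srebf1 held CCAAT or GC box matches. The promoters differ in these letters. Capitals mark TCACNCCAC and CCAAT on either strand, so that ATTGG is CCAAT read from the other strand. Hmgcs1 lies at chr13:119690101-119690400 (plus strand), Nsdhl at chrX:72918271-72918570 (plus), Sc5d at chr9:42264251-42264550 (minus) and Abca1 at chr4:53159846-53160145 (minus).
Hmgcs1: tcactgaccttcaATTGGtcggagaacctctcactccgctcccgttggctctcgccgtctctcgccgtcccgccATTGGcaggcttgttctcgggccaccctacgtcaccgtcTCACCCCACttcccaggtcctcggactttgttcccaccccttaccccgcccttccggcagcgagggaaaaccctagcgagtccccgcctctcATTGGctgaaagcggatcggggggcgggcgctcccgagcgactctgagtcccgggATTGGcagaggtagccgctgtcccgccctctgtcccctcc
Nsdhl: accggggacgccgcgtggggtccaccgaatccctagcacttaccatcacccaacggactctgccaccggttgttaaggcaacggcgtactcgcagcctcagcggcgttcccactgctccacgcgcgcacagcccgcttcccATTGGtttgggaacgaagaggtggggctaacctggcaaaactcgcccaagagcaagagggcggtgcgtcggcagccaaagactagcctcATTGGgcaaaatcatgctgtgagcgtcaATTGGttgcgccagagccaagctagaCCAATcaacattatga
Sc5d: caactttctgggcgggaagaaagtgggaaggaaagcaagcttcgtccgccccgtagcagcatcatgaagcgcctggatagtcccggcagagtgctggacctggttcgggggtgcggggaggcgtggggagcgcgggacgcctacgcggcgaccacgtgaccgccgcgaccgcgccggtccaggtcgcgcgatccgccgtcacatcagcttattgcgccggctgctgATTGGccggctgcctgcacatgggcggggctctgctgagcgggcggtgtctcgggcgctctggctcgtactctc
Abca1: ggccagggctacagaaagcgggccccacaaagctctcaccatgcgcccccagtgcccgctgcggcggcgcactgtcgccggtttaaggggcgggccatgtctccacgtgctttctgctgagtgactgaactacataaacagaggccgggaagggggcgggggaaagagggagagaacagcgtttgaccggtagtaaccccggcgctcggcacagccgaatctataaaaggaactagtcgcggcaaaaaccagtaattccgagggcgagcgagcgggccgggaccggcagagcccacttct
Hmgcs1 held 4 CCAAT matches and the TCACCCCAC match, which begins at position -137 from the start. Nsdhl also held 4 CCAAT matches, 2 of them after the start, and Sc5d held 1. Abca1 held no match to either pattern in this window. A match is a stretch of letters, not a shown binding site, and no match says only that these letters are not in this window.

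The genes differed widely in level. Levels between genes are compared here as CPM per kilobase of exon, averaged over the 16 libraries. Apoe, the main lipid carrier protein of the brain, was the highest at 599, followed by Scd2, the main stearoyl-CoA desaturase of the brain, at 529. They ranked 9 and 14 among all 17888 genes with a length, in which the median tested gene stood at 3.98. Scd1, a second desaturase that makes monounsaturated fatty acids, stood at 115, Hmgcs1, which makes HMG-CoA at the head of the mevalonate pathway, at 87.1, Fasn, the fatty acid synthase, at 53.1 and Insig1 at 50.9. At the bottom was the LXR gene Nr1h3 at 1.23, the only one of the 33 below the median tested gene, while its relative Nr1h2 stood at 15.1. Among the sterol enzymes the range ran from Fdft1 at 29.2 to Tm7sf2, a sterol C14 reductase, at 4.72.

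**Figure D1:**
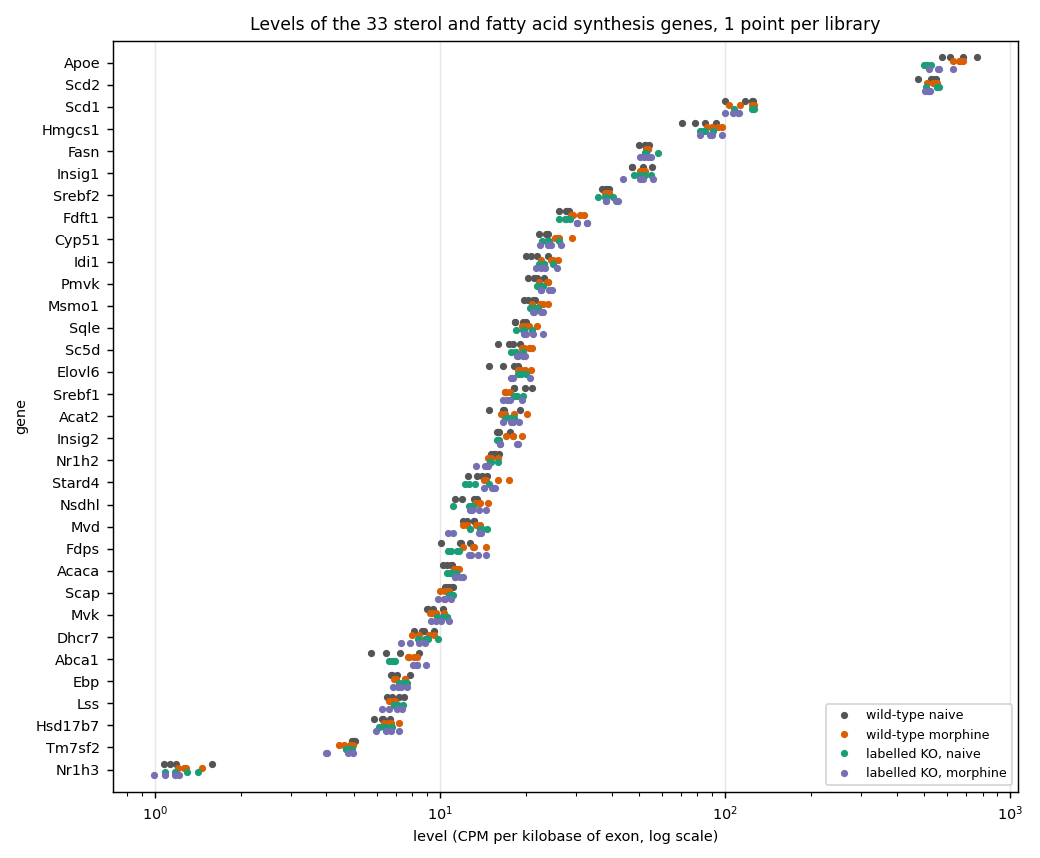
Level of each of the 33 genes in CPM per kilobase of exon (log axis), 1 point per library and 1 colour per group. Apoe at 599 and Scd2 at 529 on average stand apart at the top and Nr1h3 at 1.23 at the bottom, and for most genes the 4 groups lie close together.

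The spread between libraries was small for most of these genes. The coefficient of variation over the 16 libraries had a median of 6.86%, against 8.7% over all tested genes. It was lowest for Scap (3.49%), Fasn (3.6%) and Srebf2 (3.9%) and highest for Apoe (13.3%), Nr1h3 (12.7%), Abca1 (11.8%) and Fdps (10.3%).

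Scd2 showed how close the groups could be. It stood at 2880, 2594, 3007 and 2926 CPM in the 4 wild-type naive libraries and at 3021, 2922, 2795 and 2950 in wild-type morphine. In the libraries labelled knockout it stood at 2778, 3035, 3017 and 3066 naive and at 2742, 2863, 2838 and 2816 with morphine. All 4 groups overlapped, and Scd2 passed the threshold in no comparison.

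Scd1 stood at 574.2, 488.2, 610.8 and 607.3 CPM in wild-type naive and 607.5, 550.4, 506.6 and 619.9 in wild-type morphine libraries, and at 524.4, 616.6, 607.1 and 613.2 naive and 490.4, 548.2, 543.1 and 520.3 with morphine in those labelled knockout. Fasn stood at 572.3, 546.8, 592.2 and 571.4 in wild-type naive and 576.8, 583.7, 587 and 585.9 in wild-type morphine libraries, and at 575, 573.2, 638.9 and 576.3 naive and 551.8, 604.1, 571.2 and 589.6 with morphine in those labelled knockout. These 2 genes, which make saturated fatty acids and desaturate them, overlapped between naive and morphine in both genotypes.

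Insig1, a sensor that retains SCAP and is itself an SREBP target, stood at 158.9, 146.4, 145.9 and 171.3 CPM in wild-type naive and 155.5, 162.2, 160.2 and 158.6 in wild-type morphine libraries. The knockout-labelled libraries held 148.6, 154.1, 170.3 and 161.7 naive and 136.2, 173.2, 155.9 and 159.5 with morphine. Its group means lay between 155.6 and 159.1 CPM, and its morphine difference averaged over genotypes was 0.005 ± 0.045 (SE) on the log2 scale (95% interval -0.084 to 0.093).

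Across both genotypes together, morphine libraries held more RNA of several sterol genes than naive libraries, by small amounts. In the average of the morphine differences of both genotypes, 8 of the 33 genes rose (24.2%) against 9.02% of all tested genes, and 1 fell (3.03%) against 8.03%. A gene counts as having risen or fallen where its adjusted p from edgeR's quasi-likelihood test was under 0.05 over all 18111 genes. The 8 that rose were Fdps, Fdft1, Nsdhl, Sc5d, Insig2, Stard4, Abca1 and Acaca, and the gene that fell was Srebf1. The largest of these differences was 1.19-fold, for Abca1. The median log2 fold change of the 33 was 0.07, against -0.01 over all tested genes, and 21 of the 33 lay above 0. Without wild-type naive library 2 and knockout-labelled morphine library 3, which stood apart by meningeal markers, 6 rose and 0 fell, and Insig2 (edgeR adjusted p = 0.0525), Nsdhl (0.0569) and Srebf1 (0.059) missed the threshold. The list was put together with results of these data known, so these shares describe it and no test of it was made.

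**Figure D2:**
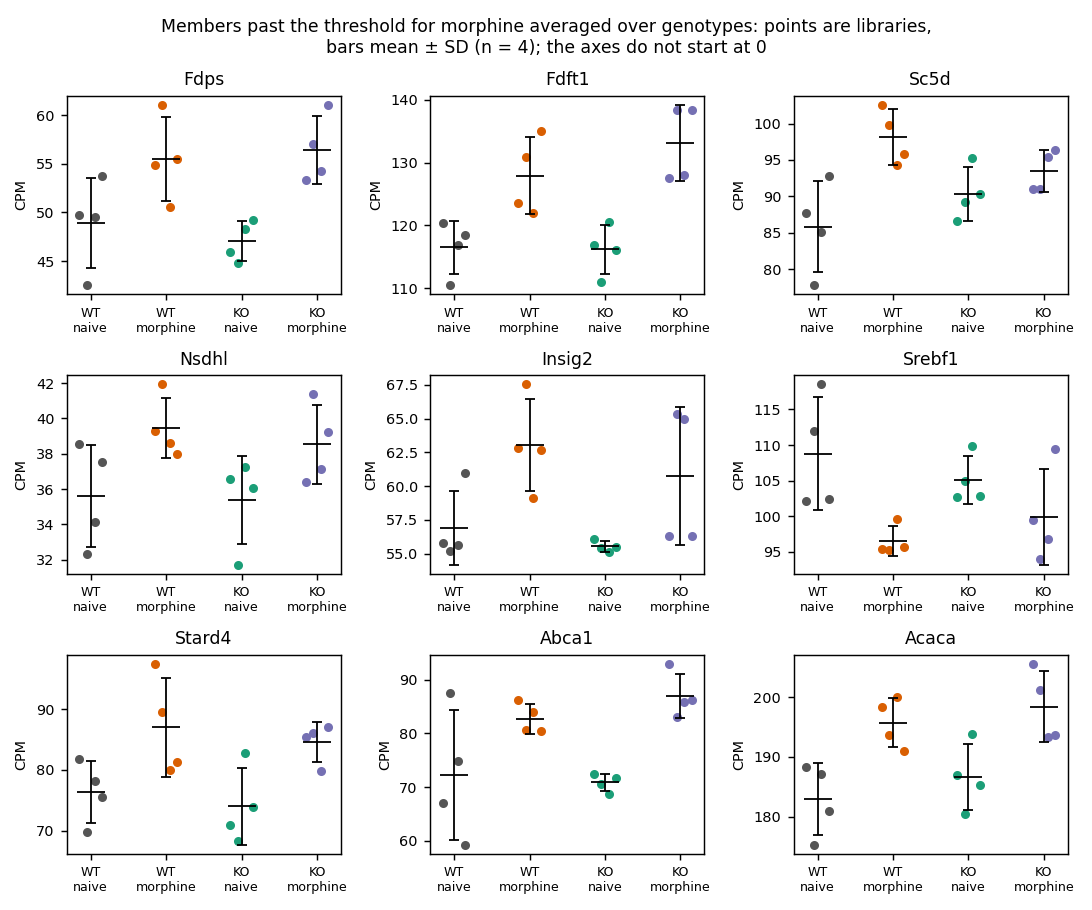
CPM of the 9 genes that passed the threshold for morphine averaged over both genotypes, 1 point per library by group, with mean ± SD (n = 4); the axes do not start at 0. For Fdft1 every morphine library lies above every naive library of the same genotype (lowest with morphine 122, highest naive 120.6), while the other panels show overlap in at least 1 genotype.

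Within a genotype fewer genes passed. In wild-type mice 1 of the 33 rose with morphine (Sc5d, 3.03% against 2.34% of all genes) and 0 fell (against 2.07%). The share that rose is near that of all genes. The direction was more uniform than the calls: 28 of the 33 lay above 0, against 47.9% of all tested genes, with a median log2 fold change of 0.09. At an unadjusted p under 0.05 there were 15 of the 33, against 3637 of all 18111 genes. DESeq2 called 6 higher and 1 lower (Srebf1), but it also called more of all genes, 1242 against 798 by edgeR. In libraries labelled knockout 3 rose (Fdps, Fdft1 and Abca1, 9.09% against 5.67%) and 0 fell (against 5.83%), with 18 of the 33 above 0 and a median of 0.01. There 10 of the 33 had an unadjusted p under 0.05, against 4612 of all 18111 genes, a share near that of all genes. DESeq2 called 5 higher and 0 lower, counts to which the edgeR shares above do not apply. Groups of 4 libraries without overlap were not rare over all genes. In wild type 5 of the 33 lay higher and 1 lower with morphine without overlap, against 5.96% and 5.09% of all genes. In libraries labelled knockout 4 lay higher and 1 lower without overlap, against 8.27% and 8.78%. The morphine comparisons of the 2 genotypes share no library.

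**Figure D3:**
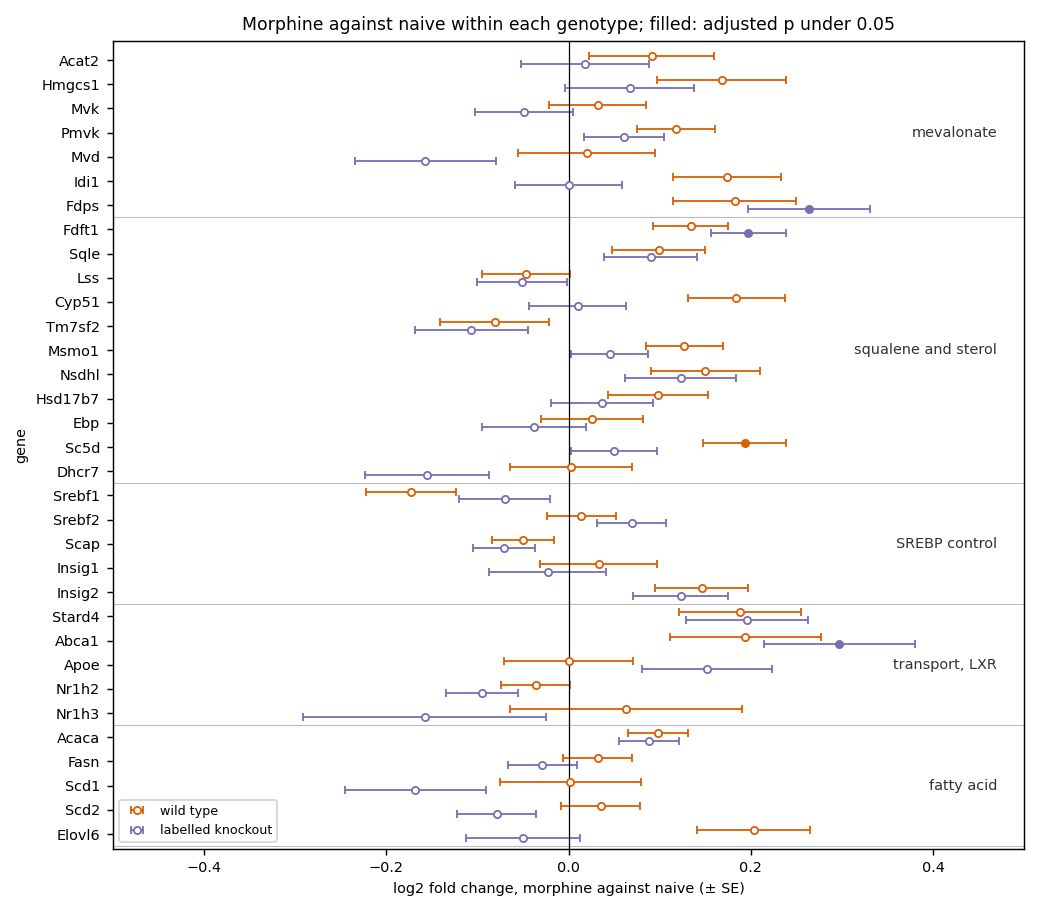
Log2 fold change of morphine against naive (± SE) for the 33 genes in wild-type and labelled knockout libraries, grouped by role; filled points passed an adjusted p of 0.05. In wild type 28 of 33 points lie to the right of 0, in libraries labelled knockout 18 of 33, and the filled points are Sc5d in wild type and Fdps, Fdft1 and Abca1 in libraries labelled knockout.

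The mevalonate pathway was represented by 7 enzymes: Acat2, Hmgcs1, Mvk, Pmvk, Mvd, Idi1 and Fdps. In wild-type mice all 7 had a log2 fold change above 0 with morphine, from 0.02 (Mvd) to 0.18 (Fdps) with a median of 0.12, and none of the 7 passed the threshold. Of the 7, 5 were above 0 in libraries labelled knockout, with a median of 0.02, and Fdps rose, against 5.67% of all genes. Fdps makes farnesyl diphosphate, the branch point from which cells draw both sterols and the prenyl groups that anchor small GTPases to membranes. It stood at 49.77, 42.54, 49.51 and 53.71 CPM in wild-type naive and 54.89, 61.06, 50.57 and 55.47 in wild-type morphine libraries. The knockout-labelled values were 45.90, 44.79, 48.30 and 49.19 naive and 53.30, 57.03, 54.22 and 61.07 with morphine. The knockout-labelled groups did not overlap, and the wild-type groups did.

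On the log2 scale Fdps rose by 0.26 ± 0.067 (SE; 1.2-fold, edgeR adjusted p = 0.018) with morphine in libraries labelled knockout. The wild-type difference was 0.18 ± 0.067 (adjusted p = 0.135), and the average of both was 0.22 ± 0.047 (1.17-fold, adjusted p = 0.00401). The knockout-labelled call was lost without naive library 2 (0.24, adjusted p = 0.0661) or without morphine library 4 (0.22, adjusted p = 0.0693). It was also lost, with a value of 0.09 ± 0.093 (adjusted p = 0.675), when the marker score of serotonin neurons described below was a covariate. Of the 50-base stretches in the exons of Fdps, 26.2% also occur in another gene's transcripts, most in the gene model Gm43738, which was not analysed here, so reads could be split.

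Hmgcs1 stood at 390.5, 325.6, 361 and 427 CPM in wild-type naive and 434, 447.4, 396.6 and 412.2 in wild-type morphine libraries, and at 376.2, 384.2, 417.7 and 389.6 naive and 374, 449.5, 405.4 and 414 with morphine in those labelled knockout. Its morphine difference was 0.17 ± 0.071 in wild type (edgeR adjusted p = 0.196) and 0.07 ± 0.071 in libraries labelled knockout (adjusted p = 0.61). Both pairs of groups overlapped. Idi1, which isomerises isopentenyl diphosphate, had a difference of 0.17 ± 0.059 in wild type (edgeR adjusted p = 0.107) and 0.00 ± 0.059 in libraries labelled knockout (adjusted p = 0.998). Of the 50-base stretches of Idi1, 25.3% also occur in other genes, most in the pseudogene Gm13502. For Hmgcs1 the share was 11.6%, so reads of both genes could be split. Acat2, the cytosolic acetoacetyl-CoA thiolase, shares 39.1% of its 50-base stretches with its near copy Acat3, so its own value (average 0.06 ± 0.049, adjusted p = 0.498) is uncertain.

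The making of squalene and its conversion to sterols were represented by 11 enzymes: Fdft1, Sqle, Lss, Cyp51, Tm7sf2, Msmo1, Nsdhl, Hsd17b7, Ebp, Sc5d and Dhcr7. In the average over genotypes 3 rose (Fdft1, Nsdhl and Sc5d) and none fell, against 9.02% and 8.03% of all genes. Fdft1, the squalene synthase that commits carbon to sterols, stood at 120.3, 110.5, 116.8 and 118.4 CPM in wild-type naive and 123.6, 130.9, 122 and 135 in wild-type morphine libraries. The knockout-labelled libraries stood at 116.9, 111, 120.6 and 116.1 naive and 127.6, 138.4, 128 and 138.4 with morphine. Every morphine library lay above every naive library of its genotype.

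Fdft1 rose by 0.17 ± 0.029 on the log2 scale (1.12-fold, edgeR adjusted p = 0.000933) in the average, the smallest adjusted p among the 33 genes. It rose by 0.20 ± 0.041 (adjusted p = 0.00581) in libraries labelled knockout, and its wild-type difference was 0.13 ± 0.041 (adjusted p = 0.0735). Both the average and the knockout-labelled call held without any 1 of the 16 libraries. Both were lost with the serotonin neuron marker score described below as a covariate, where the knockout-labelled difference was 0.10 ± 0.06 (adjusted p = 0.409). The exons of Fdft1 overlap those of Ctsb, a lysosomal protease, on the opposite strand over 774 bases, and the kit did not mark the strand, so reads there cannot be told apart. Ctsb was more abundant (687 CPM) and had a morphine difference of -0.03 ± 0.019 (adjusted p = 0.294).

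Sc5d, which puts in the C5 double bond near the end of the pathway, stood at 87.70, 77.85, 85.07 and 92.77 CPM in wild-type naive and 102.6, 99.87, 94.25 and 95.82 in wild-type morphine libraries. With the knockout label it stood at 86.58, 89.21, 95.31 and 90.27 naive and 91.07, 90.97, 95.40 and 96.40 with morphine. The wild-type groups did not overlap and the knockout-labelled groups did. Sc5d rose by 0.19 ± 0.046 on the log2 scale (1.14-fold, edgeR adjusted p = 0.0239) in wild type and by 0.12 ± 0.033 (adjusted p = 0.0159) in the average, with 0.05 ± 0.047 (adjusted p = 0.547) in libraries labelled knockout. The wild-type call was lost without naive library 2 (0.14, adjusted p = 0.0767) or 3 (0.19, adjusted p = 0.0726), and without morphine library 1 (0.17, adjusted p = 0.079) or 2 (0.19, adjusted p = 0.0719).

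Nsdhl, the X-linked sterol dehydrogenase that helps remove the C4 methyl groups, stood at 38.54, 32.33, 34.12 and 37.51 CPM in wild-type naive and 39.29, 41.93, 38.61 and 38.01 in wild-type morphine libraries. The values under the knockout label were 36.55, 31.70, 37.25 and 36.03 naive and 36.41, 41.39, 37.12 and 39.25 with morphine. Both pairs of groups overlapped. Wild-type naive library 2 was the lowest of its group, as it also was for Fdps, Fdft1, Sc5d, Insig2, Stard4 and Acaca. The average rise of Nsdhl of 0.14 ± 0.043 (1.1-fold, edgeR adjusted p = 0.0362) had the largest adjusted p of the 8. It missed the threshold without any 1 of 7 libraries: wild-type naive 2 (adjusted p = 0.0698) or 3 (0.0766), wild-type morphine 1 (0.0554) or 2 (0.0711), knockout-labelled naive 2 (0.0773), and knockout-labelled morphine 2 (0.0726) or 4 (0.0648).

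The other sterol enzymes did not pass in any comparison. Cyp51, the lanosterol demethylase, and Msmo1, a C4 methyl oxidase, were nearest in wild type, with differences of 0.18 ± 0.053 (edgeR adjusted p = 0.0558) and 0.13 ± 0.042 (adjusted p = 0.0941). The corresponding differences in libraries labelled knockout were 0.01 ± 0.053 and 0.04 ± 0.042. Sqle, the squalene epoxidase, had nearly the same difference in both genotypes, 0.10 ± 0.051 and 0.09 ± 0.051, with an average that missed the threshold (0.09 ± 0.036, adjusted p = 0.0817). Lss, which closes the ring to lanosterol, and Tm7sf2 lay below 0 in both genotypes, with averages of -0.05 ± 0.034 (adjusted p = 0.368) and -0.09 ± 0.043 (adjusted p = 0.149).

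Of the 5 genes of SREBP control, Insig2 rose and Srebf1 fell in the average over genotypes, and Srebf2, Scap and Insig1 did not pass. Over all genes 9.02% rose and 8.03% fell there. Insig2 encodes the retention protein that, unlike Insig1, is not an SREBP target in most tissues. It stood at 55.77, 55.21, 55.65 and 60.97 CPM in wild-type naive and 62.81, 67.54, 59.16 and 62.72 in wild-type morphine libraries, and at 56.06, 55.45, 55.11 and 55.53 naive and 56.28, 65.33, 64.98 and 56.33 with morphine in those labelled knockout. The knockout-labelled morphine libraries fell into a pair near 65 and a pair near 56 CPM, both above all 4 naive libraries. The average rise was 0.14 ± 0.037 (1.1-fold, edgeR adjusted p = 0.0164), with 0.15 ± 0.051 in wild type (adjusted p = 0.119) and 0.12 ± 0.052 in libraries labelled knockout (adjusted p = 0.142).

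Srebf1 was the only one of the 33 genes that fell with morphine in any of these comparisons. It stood at 102.2, 112, 118.5 and 102.4 CPM in wild-type naive and 95.41, 95.28, 99.62 and 95.76 in wild-type morphine libraries. Libraries labelled knockout stood at 102.7, 105, 109.9 and 102.9 naive and 99.52, 93.98, 96.76 and 109.4 with morphine. The wild-type groups did not overlap, and in libraries labelled knockout 1 morphine library (number 4) lay among the naive ones. The average log2 fold change was -0.12 ± 0.035 (edgeR adjusted p = 0.0225), with -0.17 ± 0.049 in wild type (adjusted p = 0.0539) and -0.07 ± 0.05 in libraries labelled knockout (adjusted p = 0.414). The average call was lost without knockout-labelled naive library 3 (-0.11, adjusted p = 0.05) or morphine library 2 (-0.11, adjusted p = 0.0571). Srebf2, the factor of the cholesterol genes, had an average of 0.04 ± 0.027 (adjusted p = 0.325) and Scap, its escort, one of -0.06 ± 0.024 (adjusted p = 0.0963).

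Among the 5 genes of sterol transport and LXR, Stard4 and Abca1 rose in the average, against 9.02% of all genes. Stard4, a small protein that carries sterol between membranes inside the cell and is an SREBP target, stood at 81.84, 69.87, 78.18 and 75.63 CPM in wild-type naive and 97.36, 89.48, 79.97 and 81.23 in wild-type morphine libraries. Under the knockout label it stood at 70.94, 68.38, 82.81 and 73.91 naive and 85.38, 86.05, 79.86 and 87.07 with morphine. In each genotype 1 naive library lay within the morphine range. The differences in the 2 genotypes were 0.19 ± 0.067 (edgeR adjusted p = 0.125) and 0.20 ± 0.067 (adjusted p = 0.0701), and the average rise was 0.19 ± 0.047 (1.14-fold, adjusted p = 0.0103).

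Abca1 encodes the pump that loads cholesterol onto apolipoproteins. It stood at 67.08, 87.61, 74.82 and 59.27 CPM in wild-type naive and 86.16, 80.59, 83.99 and 80.38 in wild-type morphine libraries, and at 72.40, 70.66, 68.69 and 71.67 naive and 92.88, 83.09, 85.85 and 86.20 with morphine in those labelled knockout. The knockout-labelled groups did not overlap, while the wild-type naive libraries ran from below to above all 4 wild-type morphine ones. Only naive library 2 (87.61), which stood apart by meningeal markers, lay above the lowest wild-type morphine library. Abca1 rose by 0.30 ± 0.083 on the log2 scale (1.23-fold, edgeR adjusted p = 0.0323) in libraries labelled knockout and by 0.25 ± 0.059 (1.19-fold, adjusted p = 0.00978) in the average, with 0.19 ± 0.083 (adjusted p = 0.201) in wild type. In wild type Abca1 passed the threshold when naive library 2 was left out, alone or with knockout-labelled morphine library 3. It also passed there with the oligodendrocyte score as a covariate, and under no other alternative. The knockout-labelled call was lost when any 1 of its 8 libraries was left out. Without naive libraries 1 to 4 in turn the adjusted p was 0.0582, 0.0847, 0.0783 and 0.0681, and without morphine libraries 1 to 4 in turn it was 0.0956, 0.0562, 0.0509 and 0.068, with log2 fold changes from 0.26 to 0.32.

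The LXR genes did not pass in any comparison. Nr1h2 had an average morphine difference of -0.07 ± 0.027 (edgeR adjusted p = 0.106). The low Nr1h3 had one of -0.05 ± 0.092 (adjusted p = 0.784), an error that leaves a wide range of values.

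Apoe was the one gene of the 33 that passed the threshold between the genotypes, and it did so in naive mice. In that comparison 1 of the 33 was lower in libraries labelled knockout (3.03% against 0.464% of all genes). None was higher (against 0.442%), and 0 were higher by DESeq2. At an unadjusted p under 0.05 there were 3 of the 33, against 2345 of all 18111 genes, a share not above that of all genes. Apoe stood at 1236, 1639, 1465 and 1311 CPM in wild-type naive and 1062, 1090, 1082 and 1126 in knockout-labelled naive libraries. After morphine it stood at 1463, 1431, 1344 and 1414 in wild type and 1342, 1109, 1199 and 1193 in libraries labelled knockout. The genotypes did not overlap in either state, although 1 knockout-labelled morphine library (1342) came within 2 CPM of the lowest wild-type one (1344). Over all genes, 4.14% lay higher and 3.99% lower without overlap in knockout-labelled naive libraries, and 2.25% and 3.02% after morphine. Of the 33, 0 lay higher and 1 lower without overlap in naive libraries, and 0 and 2 after morphine.

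The naive difference of Apoe was -0.37 ± 0.071 on the log2 scale (0.771-fold, edgeR adjusted p = 0.0178). After morphine it was -0.22 ± 0.071 (adjusted p = 0.26), and the 2 differences were not shown to differ (interaction 0.15 ± 0.1, adjusted p = 0.565). Wild-type naive library 2, which stood apart by meningeal markers, held the most Apoe of the 16 libraries (1639 CPM). The naive call held without that library, and over all alternatives the difference ran from -0.454 to -0.295. The naive call was lost without wild-type library 3 (-0.36, edgeR adjusted p = 0.0736) and without knockout-labelled library 1 (-0.36, adjusted p = 0.062), 2 (-0.37, adjusted p = 0.0611) or 3 (-0.37, adjusted p = 0.067). It was also lost with the oligodendrocyte marker score as a covariate (-0.30 ± 0.074, adjusted p = 0.132), with a block for replicate number (-0.37, adjusted p = 0.0657) and when only the 2 groups compared were fitted (-0.38, adjusted p = 0.0667).

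Apoe lies at chr7:19696109-19699188 on the minus strand (GRCm38), in a cluster of apolipoprotein genes. Of its 10 nearest tested genes, 1 was also lower in knockout-labelled naive libraries: Apoc1, another apolipoprotein, 3.4 kb away. Apoc1 is not among the 33 and was chosen after its values were seen. It stood at 2.066, 3.903, 3.16 and 2.041 CPM in wild-type naive and 0.9021, 0.7262, 1.009 and 0.9211 in knockout-labelled naive libraries, and at 2.822, 3.343, 2.273 and 2.73 in wild type and 2.119, 1.744, 1.76 and 1.237 in libraries labelled knockout after morphine. Its naive difference was -1.68 ± 0.216 on the log2 scale (edgeR adjusted p = 0.000493) and its morphine difference between genotypes -0.70 ± 0.214 (adjusted p = 0.223). Tomm40, which lies 2.1 kb from Apoe, did not pass in naive mice (-0.03 ± 0.038, adjusted p = 0.743). From 10 to 20 Mb of chromosome 7, 123 genes were tested. In naive libraries labelled knockout 1 was higher and 6 lower, against 0.442% and 0.464% of all genes. Apoe and Apoc1 are themselves among the 6. After morphine 0 were higher and 1 lower, against 0.254% and 0.276% of all genes. The window was chosen with earlier results of these data known.

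**Figure D4:**
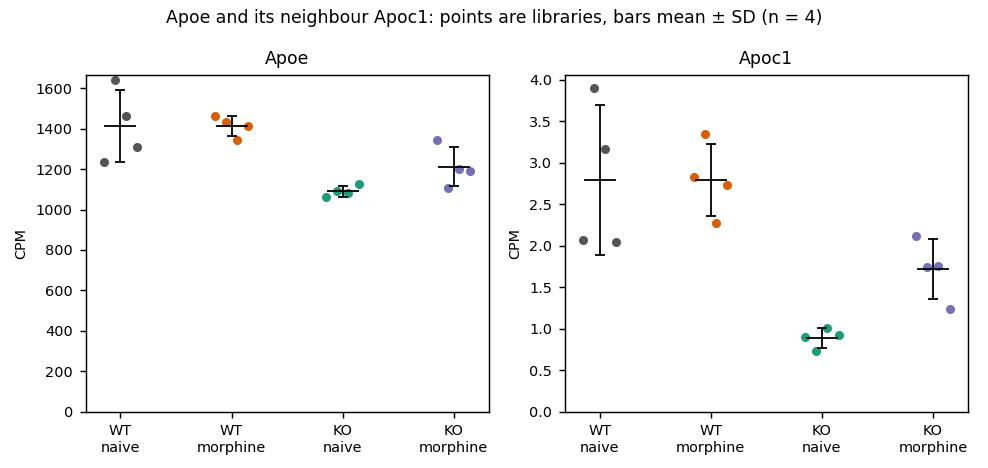
CPM of Apoe and of its neighbour Apoc1 in each library by group, with mean ± SD (n = 4) and axes from 0. The knockout-labelled naive libraries lie below all wild-type naive ones for both genes, at 1062 to 1126 against 1236 to 1639 CPM for Apoe and 0.7262 to 1.009 against 2.041 to 3.903 CPM for Apoc1.

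Of the 5 fatty acid genes 1 rose in the average, against 9.02% of all genes. This was Acaca, the acetyl-CoA carboxylase that makes malonyl-CoA for fatty acid synthesis. It stood at 188.3, 175.3, 187.1 and 180.9 CPM in wild-type naive and 198.3, 193.6, 200 and 191 in wild-type morphine libraries, and at 187, 180.5, 193.9 and 185.3 naive and 205.5, 201.2, 193.4 and 193.6 with morphine in those labelled knockout. The wild-type groups did not overlap, and in libraries labelled knockout 1 naive library lay within the morphine range by less than 1 CPM. The rise was 0.09 ± 0.023 on the log2 scale (1.07-fold, edgeR adjusted p = 0.01), the smallest of the 8 but with a small error, and 0.10 ± 0.033 and 0.09 ± 0.033 in the 2 genotypes. Of its 50-base stretches, 30.4% occur in other gene models, most in Gm5182, which was not analysed here.

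Elovl6, which lengthens palmitate to stearate, had the largest interaction of the 33 in size. Its morphine difference was 0.20 ± 0.062 in wild type (edgeR adjusted p = 0.0765) and -0.05 ± 0.063 in libraries labelled knockout (adjusted p = 0.679). The interaction itself, -0.25 ± 0.089, did not pass (adjusted p = 0.297). Scd1, Scd2 and Fasn had averages of -0.08 ± 0.054, -0.02 ± 0.03 and 0.00 ± 0.027. On the log2 scale the 95% interval ran from -0.052 to 0.055 for Fasn and from -0.189 to 0.024 for Scd1.

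Between the genotypes after morphine no gene of the 33 passed the threshold: 0 were higher (against 0.254% of all genes) and 0 lower (against 0.276%). DESeq2 called 0 of the 33. At an unadjusted p under 0.05 there were 3 of the 33, against 1745 of all 18111 genes, a share not above that of all genes. Apoe was 1 of these, with an unadjusted p of 0.0062 by edgeR and a 95% interval of -0.362 to -0.084. For the interaction, which asks whether the morphine response differs by genotype, 0 of the 33 passed in either direction, as did 0% of all 18111 genes. At an unadjusted p under 0.05 the interaction held 3 of the 33 (Elovl6, 95% interval -0.427 to -0.08, Cyp51, -0.322 to -0.027, and Sc5d, -0.272 to -0.014) and 2200 of all genes, and DESeq2 called 107 genes and 0 of the 33. The sign was mostly one way, since 26 of the 33 interactions lay below 0, with a median of -0.06. With the oligodendrocyte score as a covariate this was not so: the median was 0.002, and 16 of the 33 kept their sign. With the serotonin score the median was -0.083 and 32 of the 33 kept their sign. With a block for replicate number the median was -0.06 and all 33 kept it. The cause of the shared sign was not tested. The morphine and genotype comparisons share groups, so a high or low naive group enters both its morphine and its genotype difference.

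Other genes around the pathway were read from lists drawn up for this work. Of 25 genes of sterol uptake, efflux, storage and turnover, 7 fell and 0 rose in the average over genotypes, against 8.03% and 9.02% of all genes. The 4 with the smallest p were the efflux pumps Abcg1 (-0.15 ± 0.026, edgeR adjusted p = 0.000664) and Abcg4 (-0.13 ± 0.028, adjusted p = 0.00314), the lipoprotein receptor Vldlr (-0.16 ± 0.031, adjusted p = 0.00202) and Lcat, which esterifies cholesterol on lipoproteins (-0.28 ± 0.068, adjusted p = 0.00761). In libraries labelled knockout 6 fell, against 5.83% of all genes, among them Cyp27a1, a sterol 27-hydroxylase (-0.62 ± 0.137, adjusted p = 0.00815). In wild type 0 of the 25 passed. The count in the average was 1 with the serotonin score as a covariate, and that in libraries labelled knockout was 2 with the oligodendrocyte score and 1 with the serotonin score.

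Of 16 genes that process or degrade SREBP and its partners, 3 rose and 2 fell in the average, against 9.02% and 8.03% of all genes. Erlin2, which takes part in sterol-regulated protein degradation at the endoplasmic reticulum, rose by 0.17 ± 0.025 (edgeR adjusted p = 0.000188), Pgrmc1, a membrane haem protein that binds cytochrome P450 enzymes, by 0.18 ± 0.033 (adjusted p = 0.00113) and Sec23a, a coat protein of the vesicles that leave the endoplasmic reticulum, by 0.11 ± 0.025 (adjusted p = 0.00502). Nfyc, a subunit of NF-Y, fell by 0.16 (adjusted p = 0.00626). Of 12 tested further genes of the mevalonate and sterol pathway, 2 rose (Por, 0.095 ± 0.029, and Cyb5r3, 0.095 ± 0.032, which supply electrons to sterol enzymes) and 1 fell (Fdxr, -0.12 ± 0.04), a share near that of all genes for the gene that fell.

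Of 32 further fatty acid genes, 6 rose and 4 fell in the average, against 9.02% and 8.03% of all genes. Elovl7, an elongase of very long fatty acids that oligodendrocytes express, fell most (-0.60 ± 0.069, edgeR adjusted p = 3.32e-05). It also fell in wild type (-0.44 ± 0.096, adjusted p = 0.0158) and in libraries labelled knockout (-0.75 ± 0.099, adjusted p = 0.000344). Acsl4, which activates arachidonic acid, rose by 0.25 ± 0.047 (adjusted p = 0.00179) in the average. Mlxipl, the carbohydrate-responsive factor of lipid synthesis, fell by 0.37 (adjusted p = 0.00572). Between genotypes 1 of the 32 passed, Acacb, the mitochondrial acetyl-CoA carboxylase. Acacb was higher after morphine in libraries labelled knockout (0.46 ± 0.086, edgeR adjusted p = 0.0153), as were 0.254% of all genes. In naive mice its difference was 0.35 ± 0.083 (edgeR adjusted p = 0.0527), with 13.2 to 15.7 CPM in libraries labelled knockout and 10.7 to 12.4 in wild type. These groups did not overlap, and 4.14% of all genes lay higher without overlap there. The interaction of Acacb did not pass (0.11 ± 0.119, edgeR adjusted p = 0.749). Of 10 lipid genes induced by glucocorticoids, 4 rose and 1 fell in the average (9.02% and 8.03% over all genes). The one that fell was Lcat, named above, and those that rose were led by Plin4, a lipid droplet coat protein (1.88 ± 0.231, adjusted p = 0.000223), and Pdk4, which diverts pyruvate from oxidation (1.27 ± 0.149, adjusted p = 0.000123).

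Some cell type markers also differed between morphine and naive libraries, so the marker values stand beside those above. All marker lists were detected, with no marker at 0. The summed CPM of 12 oligodendrocyte markers ranged from 6870 to 11900 in wild-type naive, 9340 to 10900 in wild-type morphine, 10700 to 12300 in knockout-labelled naive and 7430 to 9450 in knockout-labelled morphine libraries, and 8 of the 12 fell with morphine in the last pair. The summed CPM of 10 serotonin neuron markers, which mark cells of the dorsal raphe at the ventral edge of the PAG, ranged from 251 to 898, 719 to 944, 145 to 389 and 581 to 1800 in the same order, and 9 of the 10 rose in the average. Microglial and endothelial markers were lower in the average (7 and 5 of 10 fell), as were 2 of 8 markers of oligodendrocyte precursors, 2 of 5 of red blood cells and 1 of 8 of pericytes and smooth muscle. Of 10 general neuron markers 3 rose and 0 fell, of 8 transmitter and peptide genes of PAG neurons 2 rose and 0 fell, and 1 of 8 choroid plexus markers rose. Astrocyte markers summed to between 4460 and 4940 CPM over all libraries, and 1 of 10 fell (Slc1a2, -0.10 ± 0.028). Over all genes 9.02% rose and 8.03% fell in the average, and 5.83% fell in libraries labelled knockout. A count of 1 marker of 8 or of 10 is near the share of all genes. The part of these other cell types in the differences above was not tested.

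A marker score was then added to the fit as a covariate, first that of oligodendrocytes and then that of serotonin neurons; each score is the mean deviation of its markers on the log2 scale. With the oligodendrocyte score, 8 of the 9 genes called in the average kept their call, and Hmgcs1, Pmvk, Msmo1 and Elovl6 were called in addition. The number of all genes called also rose, from 3089 to 3358. Abca1 lost its call in the average (0.13 ± 0.046, edgeR adjusted p = 0.0657), and in libraries labelled knockout its difference went from 0.30 to 0.03 ± 0.079 (adjusted p = 0.879). The median of the 33 differences was 0.10, against 0.07 without the score.

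With the serotonin score, Abca1 alone kept its call (0.40 ± 0.081, edgeR adjusted p = 0.0183) and the other 8 lost it. The median of the 33 differences fell from 0.07 to 0.01, and the median SE rose from 0.039 to 0.061. Over all genes 435 were called in this fit, against 3089. Fdps stood at 0.10 ± 0.066 and Nsdhl at 0.03 ± 0.061, while Stard4 (0.18 ± 0.077) and Acaca (0.10 ± 0.037) kept their size with a larger error. In libraries labelled knockout, every morphine library had a higher serotonin score (0.096 to 1.577) and a lower oligodendrocyte score (-0.403 to -0.08) than every naive one (-1.988 to -0.524 and 0.114 to 0.382). Morphine and the scores cannot be told apart there.

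**Figure D5:**
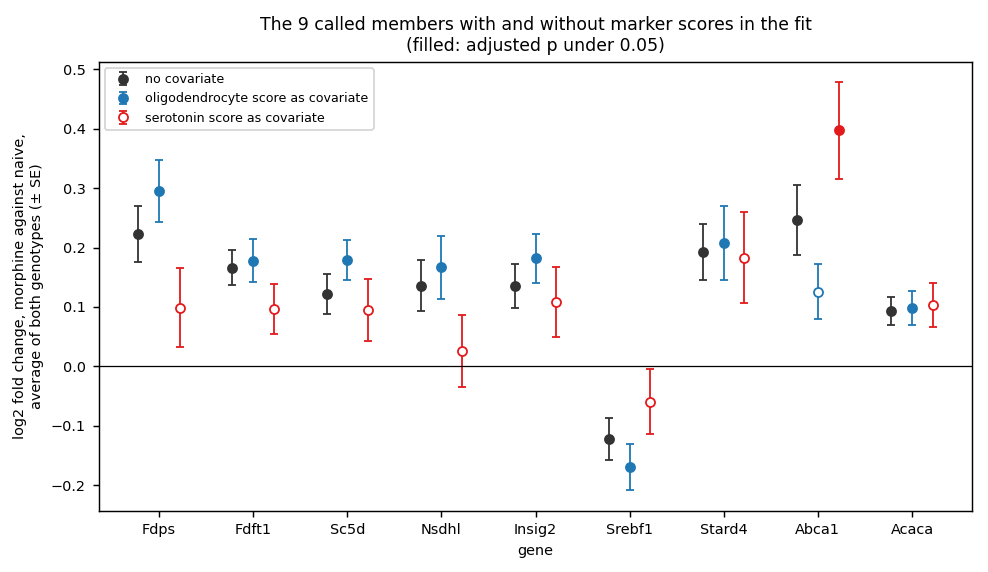
Log2 fold change of morphine against naive, averaged over both genotypes (± SE), for the 9 called genes without a covariate, with the oligodendrocyte score and with the serotonin score; filled points passed an adjusted p of 0.05. With the serotonin score Abca1 alone stays filled, at 0.40, and with the oligodendrocyte score Abca1 alone becomes open, at 0.13.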

How the data were processed

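The authors deposited 1 file per library with raw read counts per gene. Per the submitters' processing notes these came from HTSeq and the mm10 build, and limma was also named. The labels' protocols name TRIzol and the TruSeq v2 kit, whose reads carry no strand. Neither the aligner nor the annotation and strand setting used for counting could be read from the labels. Tallies of reads outside genes (38.2 to 40.6% of all counts) were left out. Of 38924 identifiers, 37607 matched GENCODE M21.

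Counts were tested with edgeR 4.0.16 (filterByExpr with a minimum count of 10, TMM scaling, robust quasi-likelihood) in 1 fit of all 16 libraries, with Benjamini-Hochberg adjustment over 18111 genes and a threshold of 0.05. The fit was tested on simulated data. P-values measure the spread between pools of 2 animals. CPM use TMM-scaled library sizes. No 2 replicates agreed within sampling noise (lowest chi-square per gene 3.58). Alternatives were DESeq2 1.42.0 (size factors and Wald test), limma-voom (3.58.1), no filter and a stricter one (1 CPM in 8 libraries), only the groups compared, a replicate block, 2 marker score covariates and leaving out each library; leaving out 2 libraries together was added after seeing the data. Motifs and shared sequence came from RefSeq promoters and GENCODE transcripts. All 33 genes could be named; values per library were given for genes called in any comparison and the 6 highest per kilobase, and from other lists at most 4 called genes per comparison by smallest p. The members and lists were chosen with earlier results of these data known.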

Additional observations from a re-analysis of the deposited data

Results flagged for a closer look

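In 7 of 132 groups of 4 libraries (33 genes in 4 groups), 1 library lay far from the other 3, with a gap to the nearest of them, as a share of the group's range, above Dixon's critical value. Chance alone flags about 1 in 20 such groups. Elovl6 stood at 133 CPM in knockout-labelled morphine library 2, against 115 to 116 in the others. Fasn stood at 639 CPM in knockout-labelled naive library 3, against 573 to 576. Insig2 stood at 61 CPM in wild-type naive library 4, against 55.2 to 55.8, and Nr1h2 at 53.4 CPM in knockout-labelled naive library 2, against 50.2 to 50.6. Pmvk stood at 38.1 CPM in wild-type morphine library 3, against 40.8 to 41.1, and Srebf1 at 99.6 CPM in the same library, against 95.3 to 95.8. Scd1 stood at 524 CPM in knockout-labelled naive library 1, against 607 to 617. No gene of the 33 moved in opposite directions with morphine in every library of the 2 genotypes.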

How the results depend on the processing

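No called gene of the 33 reversed its direction under any alternative. In wild-type morphine, members that rose (1) numbered 2 without the filter, 6 by DESeq2's Wald test, 3 with the oligodendrocyte score, and 0 with the serotonin score or only the groups compared, and members that fell (0) numbered 1 with the stricter filter, the Wald test or the oligodendrocyte score. All genes called there (798) numbered 1242 by the Wald test, 314 with the serotonin score, 512 with the replicate block and 410 with only the groups compared. In knockout-labelled morphine, members that rose (3) numbered 5 by the Wald test, and all genes (2082) 728 with the oligodendrocyte and 333 with the serotonin score. There the serotonin score lost Fdps (adjusted p = 0.675, edgeR) and Fdft1 (0.409) and added Apoe (0.0444), and Abca1 was lost without the filter (0.085) and with the oligodendrocyte score (0.879). The naive genotype call of Apoe (1) became 0 with the replicate block, the oligodendrocyte score or only the groups compared. All genes there (164) numbered 376 by the Wald test, 89 with the replicate block, 58 with the oligodendrocyte score and 104 with wild-type naive 2 and knockout-labelled morphine 3, the libraries with the highest meningeal scores, left out together. After morphine all genes between genotypes (96) numbered 202, 38 and 236 by the Wald test, the oligodendrocyte score and that pair left out. The interaction (0) held 1 gene without the filter, 107 by the Wald test and 64 with that pair left out. In the average, members that rose (8) numbered 1 and members that fell (1) 0 with the serotonin score, where all genes numbered 435; with the pair left out members that fell numbered 0. The causes were not tested.

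Leaving out each library in turn, members that rose ranged from 0 to 7 in wild-type morphine, 1 to 4 in knockout-labelled morphine and 7 to 12 in the average, and members that fell from 0 to 1 in wild-type morphine, 0 to 2 in the average and 0 to 1 between naive genotypes. All genes ranged from 378 to 1252, 1037 to 2341 and 2399 to 3302 in the 3 morphine comparisons, 68 to 210 and 49 to 129 between genotypes, and 0 to 56 in the interaction. Replicate numbers did not pair the libraries: same-numbered libraries correlated from -0.283 to 0.133, with 3 of 24 pairs over 0.1. With the replicate block, the average calls of Fdps, Fdft1, Insig2, Srebf1, Sc5d, Stard4, Abca1 and Acaca held, and that of Nsdhl did not (adjusted p = 0.0602, edgeR). Insig2 also missed the threshold with the pair left out (adjusted p = 0.0525), as did Srebf1 (0.059).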
